A study of Homo sapiens with 6 samples.

Results

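The genes of the proteasome were examined with and without ARID4B in K562, an established erythroleukemia cell line of human origin. They were taken as every row of the gene count table whose symbol follows the proteasome scheme, that is PSM, a letter from A to G and a number, which gave 48 of 34495 rows. There were 3 libraries labelled ARID4B knockout and 3 labelled wild type, all of K562 grown in RPMI medium with serum and antibiotics, and sequenced from messenger RNA with a strand-preserving kit. ARID4B is a subunit of SIN3-HDAC, a corepressor that deacetylates histones. The line, the medium and the growth conditions were common to both genotypes. A label field of the knockout libraries gives the line as K565, whereas their cell line field gives K562. The sources used here do not give how the knockout was made, nor if each library had its own culture or its own edited clone. The p-values are therefore set against library-to-library spread alone, and that spread may be technical.

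The proteasome is the protease that degrades ubiquitin-tagged proteins. Its barrel-shaped core has outer rings of alpha subunits, which gate the entrance, and inner rings of beta subunits, of which PSMB5, PSMB6 and PSMB7 carry the cutting sites. A regulatory cap, made of a base with a ring of ATPases and a lid, binds, unfolds and de-ubiquitinates the substrate. In cells exposed to interferon, and constitutively in many blood and immune cells, the cutting subunits are exchanged for PSMB8 (in place of PSMB5), PSMB9 (in place of PSMB6) and PSMB10 (in place of PSMB7), and the activator made of PSME1 and PSME2 is induced with them. This immunoproteasome makes peptides that the transporter TAP1-TAP2 carries to class I HLA molecules.

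The 48 genes were 8 alpha subunits, 7 constitutive beta subunits, 3 immune beta subunits, the thymus beta subunit PSMB11, 9 base subunits, 8 lid subunits, 3 chaperones of base assembly, 4 chaperones of core assembly, 4 activators and the regulator PSMF1. Of these, 46 had enough counts to be tested. The thymus subunit PSMB11 had 0 counts in all 6 libraries, and PSMA8, an alpha subunit of the testis, had 1 count in knockout library 1 and 0 in the others.

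Levels are given as CPM, counts divided by the TMM-corrected library size and brought to a common scale, and differences as log2 fold changes, knockout over wild type, each with a standard error (SE). A gene was called where its p from edgeR's quasi-likelihood F test, adjusted by Benjamini-Hochberg over all 13696 genes tested, was under 0.05. By that rule 33.7% of all tested genes were called, 18.3% as higher and 15.4% as lower in knockout cells. Among the proteasome genes, 4 were higher, 20 were lower and 22 did not pass. The 4 that rose were PSMB8, PSMB9, PSME1 and PSME4. The median log2 fold change was -0.22 over the 46 tested proteasome genes, against 0.02 over all tested genes. Without any 1 of the wild-type libraries, 1 proteasome gene was called as higher, PSMB8, and 8 were called as lower, though not the same 8 each time. PSMA1 was among the 8 only without wild-type library 1, and PSMD3 only without library 2 or 3.

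**Figure D1:**
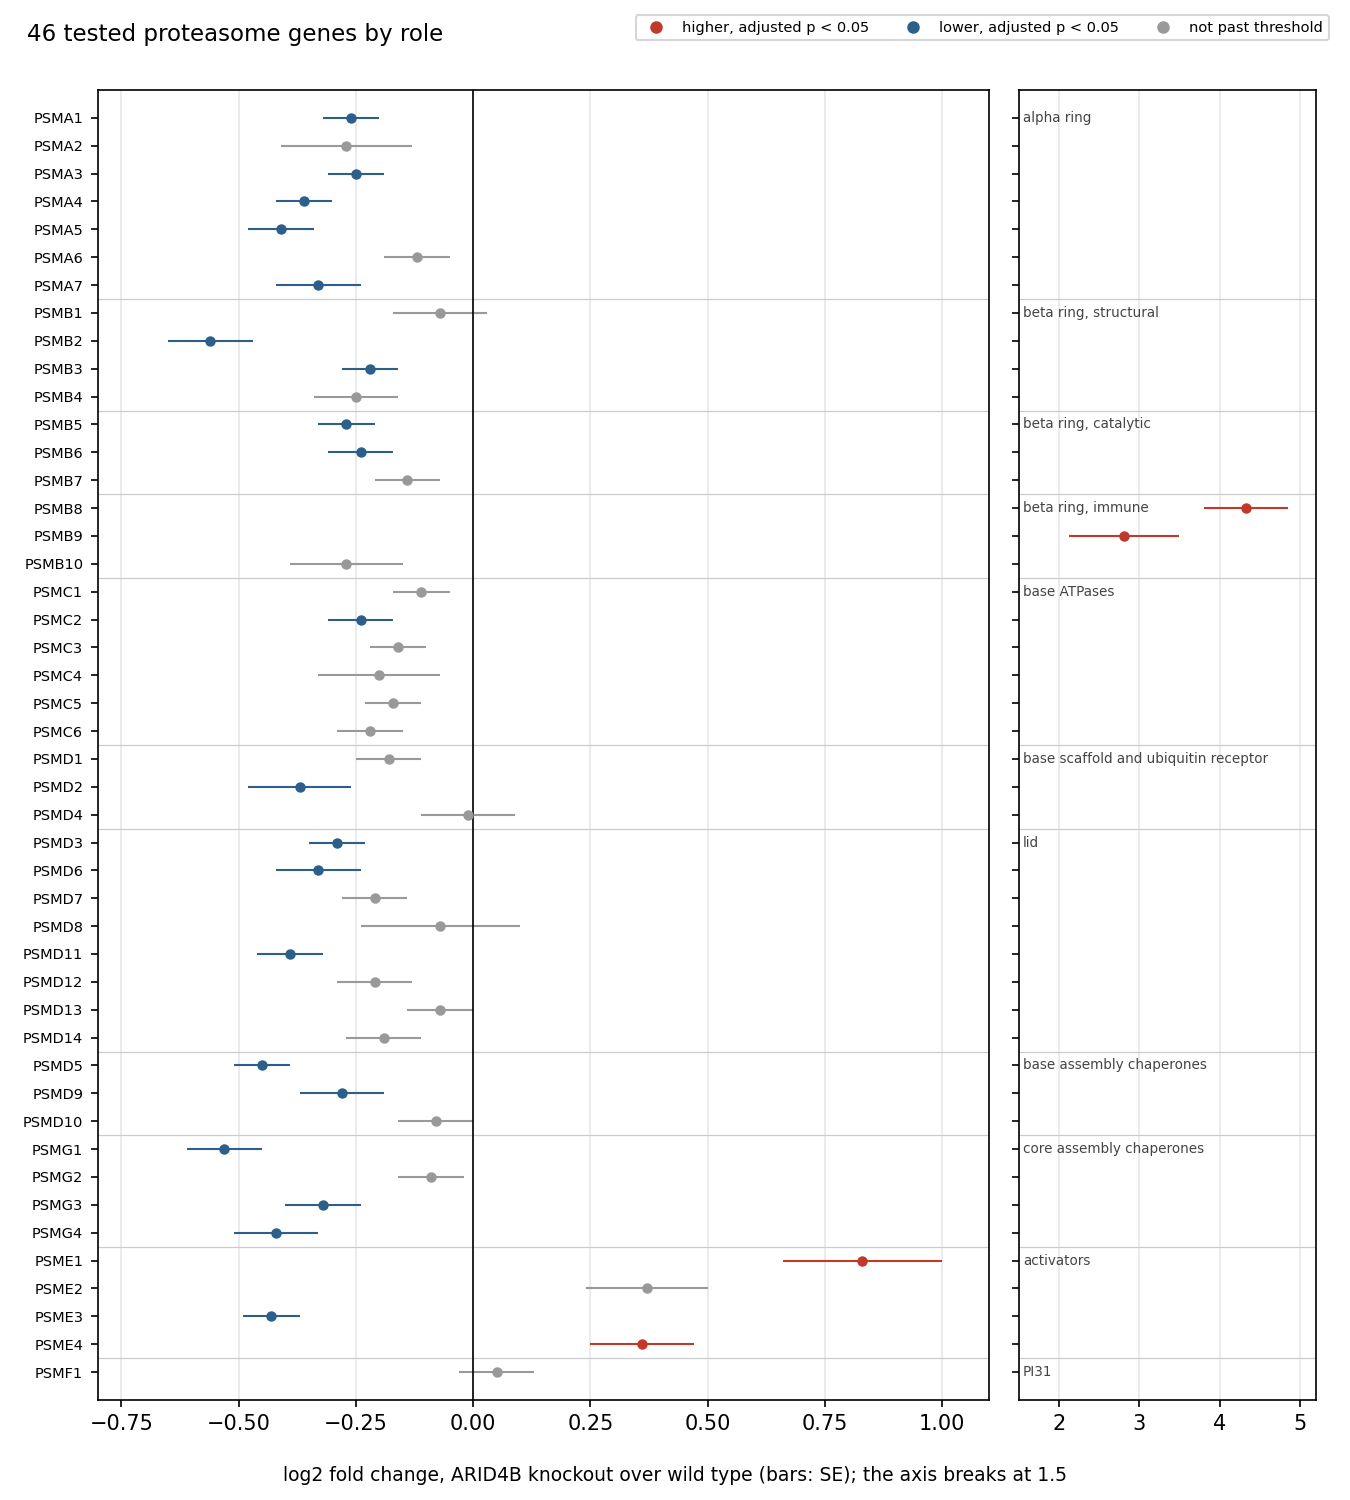
Log2 fold change of knockout over wild type for the 46 tested proteasome genes, grouped by role from top to bottom; bars are SE and colours show the call. The axis is broken at 1.5, beyond which lie PSMB8 at 4.33 and PSMB9 at 2.81, whereas 40 of the 46 genes lie below 0.

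Library totals ran from 21701404 to 24287385 estimated counts in knockout cells and from 23959811 to 30346244 in wild-type cells. ARID4B itself had 8.52, 7.22 and 7.68 CPM in knockout libraries 1, 2 and 3, against 38.4, 41.0 and 40.9 CPM in the wild-type libraries (log2 fold change -2.36, SE 0.10, adjusted p = 0.000132 by edgeR). The knockout libraries varied more among themselves: the common biological coefficient of variation was 32.3% in knockout and 4.8% in wild type. Erythroid markers of K562 were present in every library and summed to 14875, 27886 and 20781 CPM in knockout cells, against 15607 to 16880 CPM in wild-type cells. Among 7 markers of stromal and epithelial cells, 4 of the 5 tested were higher and 1 lower in knockout cells, with summed levels of 801 to 1823 CPM in knockout and at most 754 CPM in wild type, and their part in the results below was not tested. In bulk libraries, fewer cells that express a gene and less of its RNA per cell cannot be told apart.

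The promoters of the immunoproteasome genes are shown because interferon-responsive members can be compared by their letters. The sequences are from RefSeq (GRCh38.p14), 5′ to 3′ on the strand of the gene, from 150 bases before a transcript start to 20 bases from it. Capitals mark each match to the paired GAAA motif, that is GAAA, any 2 bases and GAAA again, on either strand, which is the core of interferon-stimulated response elements. PSMB8 has 2 starts that lie 632 bases apart and the window of the second is printed (chr6:32844028-32844197, minus strand). The others are PSMB9 (chr6:32854042-32854211, plus strand), PSMB10 (chr16:67936831-67937000, minus strand), PSME1 (chr14:24136044-24136213, plus strand), PSME2 (chr14:24146591-24146760, minus strand) and the first of 2 windows of the peptide transporter gene TAP1 (chr6:32853685-32853854, minus strand), which starts 487 bases from PSMB9 on the other strand.
PSMB8: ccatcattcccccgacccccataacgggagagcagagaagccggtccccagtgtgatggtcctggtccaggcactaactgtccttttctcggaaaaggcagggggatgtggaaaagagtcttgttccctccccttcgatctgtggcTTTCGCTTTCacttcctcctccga
PSMB9: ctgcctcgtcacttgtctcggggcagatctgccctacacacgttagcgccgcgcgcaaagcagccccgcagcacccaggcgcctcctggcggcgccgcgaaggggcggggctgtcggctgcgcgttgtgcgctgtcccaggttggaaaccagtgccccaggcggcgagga
PSMB10: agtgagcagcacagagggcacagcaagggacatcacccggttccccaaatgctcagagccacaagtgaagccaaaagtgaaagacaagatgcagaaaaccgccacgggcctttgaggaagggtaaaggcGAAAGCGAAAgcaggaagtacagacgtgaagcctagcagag
PSME1: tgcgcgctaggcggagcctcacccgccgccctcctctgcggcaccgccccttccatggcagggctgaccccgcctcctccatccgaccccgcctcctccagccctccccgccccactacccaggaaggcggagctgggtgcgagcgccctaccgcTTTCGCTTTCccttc
PSME2: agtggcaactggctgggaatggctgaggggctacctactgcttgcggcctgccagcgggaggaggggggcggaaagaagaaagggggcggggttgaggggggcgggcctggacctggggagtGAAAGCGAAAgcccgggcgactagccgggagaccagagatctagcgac
TAP1: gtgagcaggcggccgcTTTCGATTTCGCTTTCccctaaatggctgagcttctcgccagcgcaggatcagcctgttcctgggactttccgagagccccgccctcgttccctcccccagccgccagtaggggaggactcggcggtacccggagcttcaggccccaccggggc

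The match lay at positions -4 to 6 from the PSMB8 start, -21 to -12 from the PSMB10 start, 6 to 15 from the PSME1 start and -28 to -19 from the PSME2 start. In TAP1, 2 overlapping matches spanned positions -134 to -119. No match lay in the printed window of PSMB9, in the window of the first PSMB8 start or in the second window of TAP1. Windows of 300 bases, from 250 before to 50 from the start, were on file for 42 of the 48 proteasome genes, with 51 windows in all. The motif was in 7 of the 51 windows, each of another gene, against 3.57% of all 35116 windows. The 7 genes were PSMA4, PSMB4, PSMB8, PSMB10, PSME1, PSME2 and PSMG4, of which 2 were higher, 2 lower and 3 not called. The letters found most often at these matches, GAAAGCGAAA, searched on both strands after the sequences had been seen, occurred in 0.0997% of all windows and in 5 of the 51, those of PSMB8, PSMB10, PSME1, PSME2 and PSMG4. The letters CCAAT, on either strand, were in 20 of the 51 windows, against 34.6% of all windows. A match is a description of the letters and not a site of binding. The 7 genes that hold the paired motif did not move one way: PSMB8 and PSME1 rose, PSMA4 and PSMG4 fell, and PSMB4, PSMB10 and PSME2 did not pass the test.

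Of the immune subunits, PSMB8 and PSMB9 rose and PSMB10 did not pass the test. PSMB8 (hg19 chr6:32808494-32812712) had 7.89, 3.39 and 2.73 CPM in knockout libraries 1, 2 and 3, against 0.225, 0.239 and 0.216 CPM in the wild-type libraries. Every knockout library was above every wild-type library, and knockout library 1 was the highest. The mean was 4.67 ± 2.81 CPM in knockout and 0.227 ± 0.0115 CPM in wild type (SD, n = 3 each), a difference that edgeR fitted as 4.33 on the log2 scale (SE 0.52, adjusted p = 0.00242). The wild-type values rest on 6, 7 and 5 counts and the knockout values on 202, 76 and 65. No wild-type library reached the level of the expression filter, 0.415 CPM, so PSMB8 was tested only because of its knockout levels. Its call was kept under all 16 alternatives run, and the log2 fold change was 3.72 without knockout library 1.

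PSMB9 (hg19 chr6:32821938-32827628) had 6.99, 4.82 and 1.01 CPM in the knockout libraries, against 0.488, 0.683 and 0.649 CPM in the wild-type libraries. The groups did not overlap, but knockout library 3 lay much nearer to wild type than the other two. The fitted log2 fold change was 2.81 (SE 0.68, adjusted p = 0.0207), from 179, 108 and 24 counts in knockout and 13, 20 and 15 counts in wild type. Its adjusted p was 0.0771 to 0.0893 without any 1 wild-type library and 0.099 with limma-voom, so the call does not stand under those settings. PSMB9 was also the proteasome gene with the largest spread among the knockout libraries, an SD of 1.22 in log2(CPM + 0.5), against 0.14 in wild type.

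PSMB10 (hg19 chr16:67964629-67970780) had 25.9, 20.1 and 23.3 CPM in the knockout libraries, against 30.3, 27.1 and 26.4 CPM in the wild-type libraries. The knockout libraries were below all wild-type libraries by a margin smaller than the spread within a genotype (log2 fold change -0.27, SE 0.12, adjusted p = 0.126). Without knockout library 1, which was the highest of the 3, the difference passed as a fall (log2 fold change -0.37, adjusted p = 0.0419).

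The constitutive subunits that PSMB8, PSMB9 and PSMB10 replace were all lower on average in knockout cells. PSMB5, the chymotrypsin-like subunit, had 198, 201 and 205 CPM in the knockout libraries, against 255, 237 and 239 CPM in wild type (log2 fold change -0.27, SE 0.06, adjusted p = 0.0142). The 2 groups were well apart, although the adjusted p was 0.0535 to 0.0603 without any 1 wild-type library. PSMB6, the caspase-like subunit, had 110, 123 and 107 CPM in knockout and 138, 131 and 132 CPM in wild type (log2 fold change -0.24, adjusted p = 0.0456). Its call was lost without any 1 wild-type library (0.114 to 0.134), and without knockout library 1 or 3 the adjusted p reached at most 0.0674. With the 50 tested genes nearest to it as its offset, PSMB6 stood at -0.18 and was not called (adjusted p = 0.115). PSMB7, the trypsin-like subunit, had 262, 283 and 248 CPM in knockout and 298, 281 and 292 CPM in wild type, with overlapping groups (log2 fold change -0.14, adjusted p = 0.173).

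**Figure D2:**
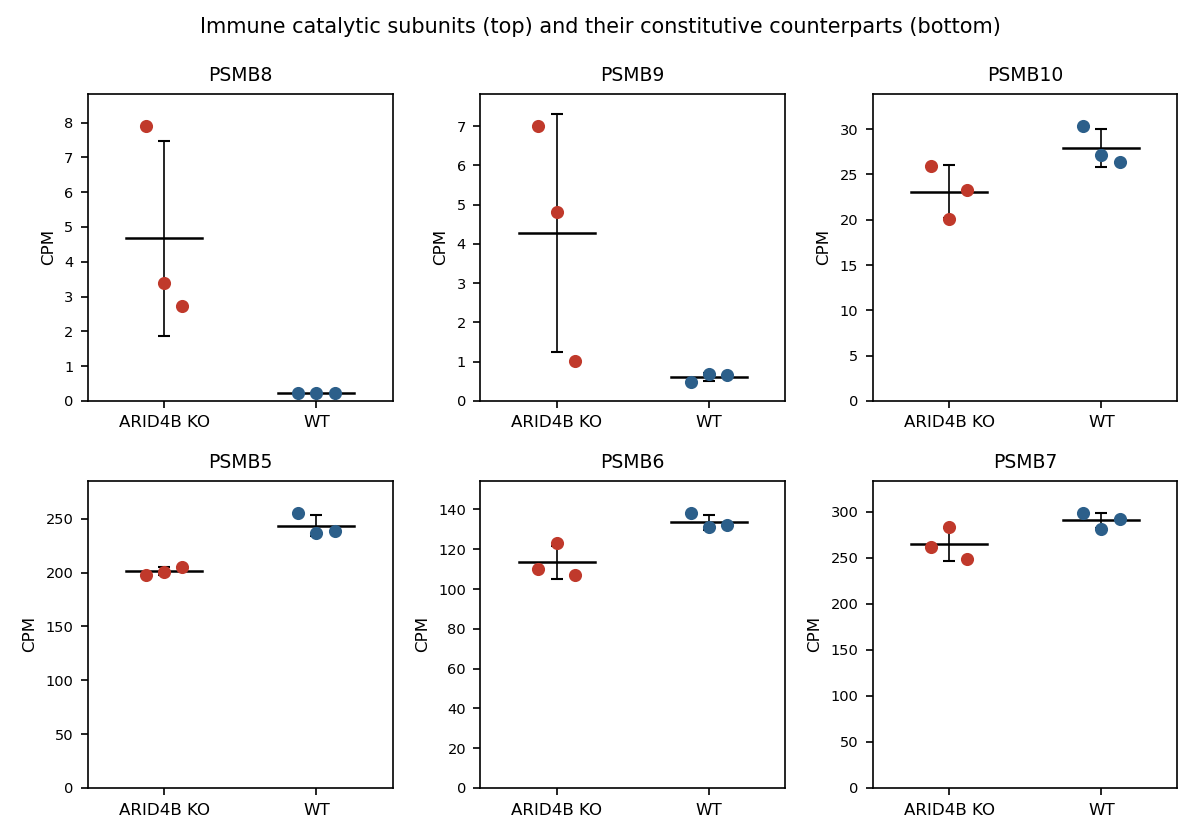
CPM per library (points), mean (line) and SD (bars), n = 3 each, of the immune catalytic subunits in the upper row and the constitutive subunit each replaces below it; each panel has its own linear axis from 0. PSMB8 reaches 2.73 CPM or more in knockout cells and stays at 0.239 CPM or less in wild type, whereas PSMB5 lies between 198 and 205 CPM in knockout and between 237 and 255 CPM in wild type.

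The ratio of an immune subunit to its counterpart within a library does not depend on how libraries are scaled. PSMB8 stood at 3.98%, 1.68% and 1.33% of the PSMB5 level in the knockout libraries, against 0.0883%, 0.101% and 0.0905% in the wild-type libraries. PSMB9 stood at 6.38%, 3.92% and 0.941% of PSMB6 in knockout, against 0.354%, 0.521% and 0.492% in wild type. PSMB10 stood at 9.86%, 7.09% and 9.38% of PSMB7 in knockout, against 10.2%, 9.63% and 9.02% in wild type, with overlapping values. The log2 ratios differed by 4.48, 2.67 and -0.14. With a pseudocount of 1 CPM the first 2 differences were 2.37 and 1.74, and with 1 library left out they ranged from 4.01 to 4.80 and from 2.10 to 3.48. In an exact two-sided permutation test p was 0.1 for the PSMB8 and PSMB9 ratios, the smallest value that 3 against 3 libraries can give, and 0.6 for PSMB10, or 0.125, 0.125 and 0.6 after Benjamini-Hochberg adjustment over 5 ratios. These tests cannot pass 0.05 in this design.

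Even in knockout cells the immune subunits were a small part of the proteasome transcripts. PSMB8, PSMB9 and PSMB10 together made up 0.476%, 0.314% and 0.327% of the summed CPM of all proteasome genes in knockout libraries 1, 2 and 3. In the wild-type libraries the 3 genes made up 0.308%, 0.279% and 0.268%. PSMB8 and PSMB9 together made up 0.174%, 0.0911% and 0.0451% of the summed CPM of all proteasome genes in the knockout libraries, against 0.00708%, 0.0092% and 0.00853% in wild type. Per kilobase of transcript, PSMB8 averaged 3.77 CPM in knockout and 0.183 CPM in wild type. PSMB9 averaged 5.46 CPM per kilobase in knockout and 0.776 in wild type. PSMB10 averaged 18.9 CPM per kilobase in knockout and 22.9 in wild type, and so was the most abundant immune subunit in both genotypes. PSMB5 averaged 183 CPM per kilobase in knockout and 221 in wild type.

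The activators divided by kind. PSME1 and PSME2 form the interferon-inducible activator PA28alpha-beta, PSME3 forms the nuclear activator PA28gamma, and PSME4 is PA200. PSME1 (hg19 chr14:24605378-24608176) had 75.8, 50.5 and 49.0 CPM in the knockout libraries, against 33.3, 32.3 and 32.9 CPM in wild type. All knockout libraries were above all wild-type libraries, with library 1 the highest (log2 fold change 0.83, SE 0.17, adjusted p = 0.012). Without any 1 wild-type library the adjusted p was 0.054 to 0.057. PSME2 (hg19 chr14:24612574-24615855), whose body lies 4397 bases from PSME1, had 86.9, 80.6 and 62.9 CPM in knockout, against 62.1, 59.6 and 56.2 CPM in wild type. The groups did not overlap, but knockout library 3 was close to the highest wild-type library (log2 fold change 0.37, SE 0.13, adjusted p = 0.0597). Without that library PSME2 passed the test (log2 fold change 0.49, adjusted p = 0.00648).

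PSME3 (hg19 chr17:40976443-40995777) fell, with 300, 320 and 288 CPM in the knockout libraries against 406, 416 and 400 CPM in wild type. The groups were far apart relative to their spread (log2 fold change -0.43, SE 0.06, adjusted p = 0.004), and the call was kept under all 16 alternatives. PSME4 (hg19 chr2:54091204-54197977) had 230, 277 and 210 CPM in knockout, against 175, 199 and 184 CPM in wild type, with knockout library 2 the highest (log2 fold change 0.36, SE 0.11, adjusted p = 0.0465). That call was lost under 7 alternatives, with an adjusted p of 0.101 to 0.173 without any 1 wild-type library and 0.0665 without knockout library 2. PSME1 stood at 25.3%, 15.8% and 17% of PSME3 in the knockout libraries, against 8.2%, 7.78% and 8.23% in wild type. PSME2 stood at 29%, 25.2% and 21.8% of PSME3 in knockout, against 15.3%, 14.3% and 14% in wild type. For both ratios the exact permutation p was 0.1, the smallest possible, with log2 differences of 1.23 and 0.79. The 50 tested genes nearest to PSME1 had a median log2 fold change of 0.24, and 0.39 in knockout library 3 alone, so the genes around PSME1 and PSME2 were also higher in the median. With each gene's neighbours taken as its offset, PSME1 stood at 0.61 (adjusted p = 0.0476) and PSME2 at 0.17 (adjusted p = 0.491).

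**Figure D3:**
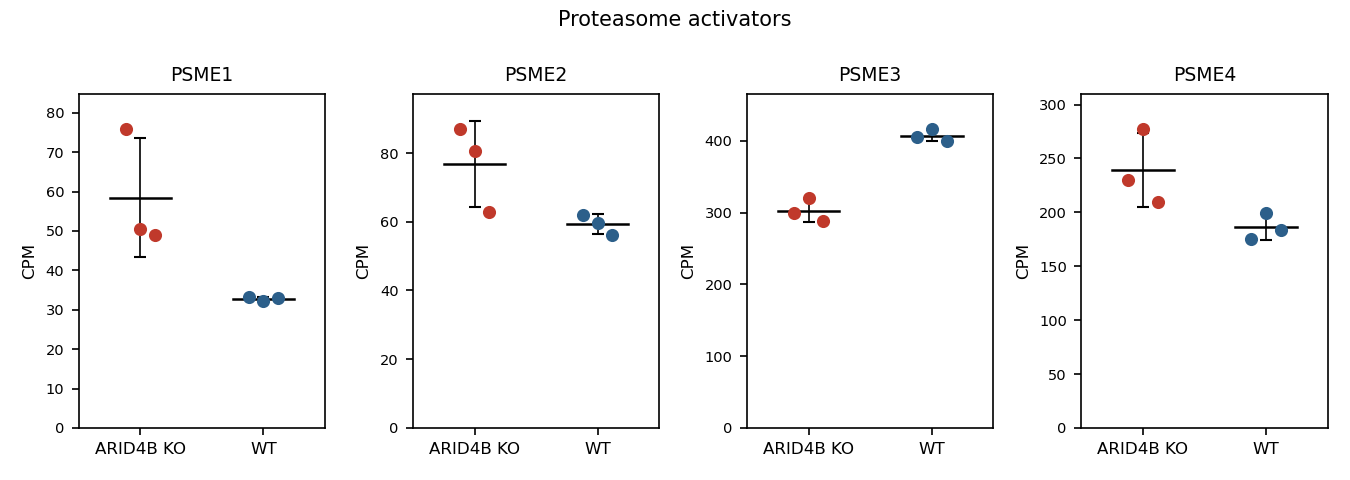
CPM per library (points), mean (line) and SD (bars), n = 3 each, of the 4 activator genes, each on its own linear axis from 0. The knockout points lie above the wild-type points for PSME1, PSME2 and PSME4 and below them for PSME3, where no knockout library exceeds 320 CPM.

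Of the 31 constitutive subunits of the complete proteasome, 14 fell, none rose and 17 did not pass the test, where 15.4% of all tested genes were called as lower and 18.3% as higher. The count of falls depended on the setting: 4 with library totals alone (PSMA4, PSMA5, PSMB2 and PSMD11), 6 with upper quartile factors, 7 with a replicate block, 20 with neighbouring genes as offset and 21 with DESeq2. All 31 log2 fold changes were below 0, from -0.56 to -0.01 with a median of -0.22, although this sign held for 26 of 31 when libraries were scaled by their totals alone and for 27 of 31 with upper quartile factors. Library totals alone moved the median of all tested genes by 0.11 on the log2 scale, and the proteasome genes' median stood 0.24 below that of all tested genes under either scaling. In 25 of the 31 genes every knockout library was below every wild-type library, a pattern that 25.7% of all tested genes showed. The 31 genes summed to 7171, 7544 and 6965 CPM in the knockout libraries, against 8542, 8462 and 8602 CPM in wild type. Without any 1 wild-type library, 5 of the 31 were called as lower. PSMA4, PSMA5, PSMB2 and PSMD11 were called each time, with PSMA1 only without library 1 and PSMD3 only without library 2 or 3.

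**Figure D4:**
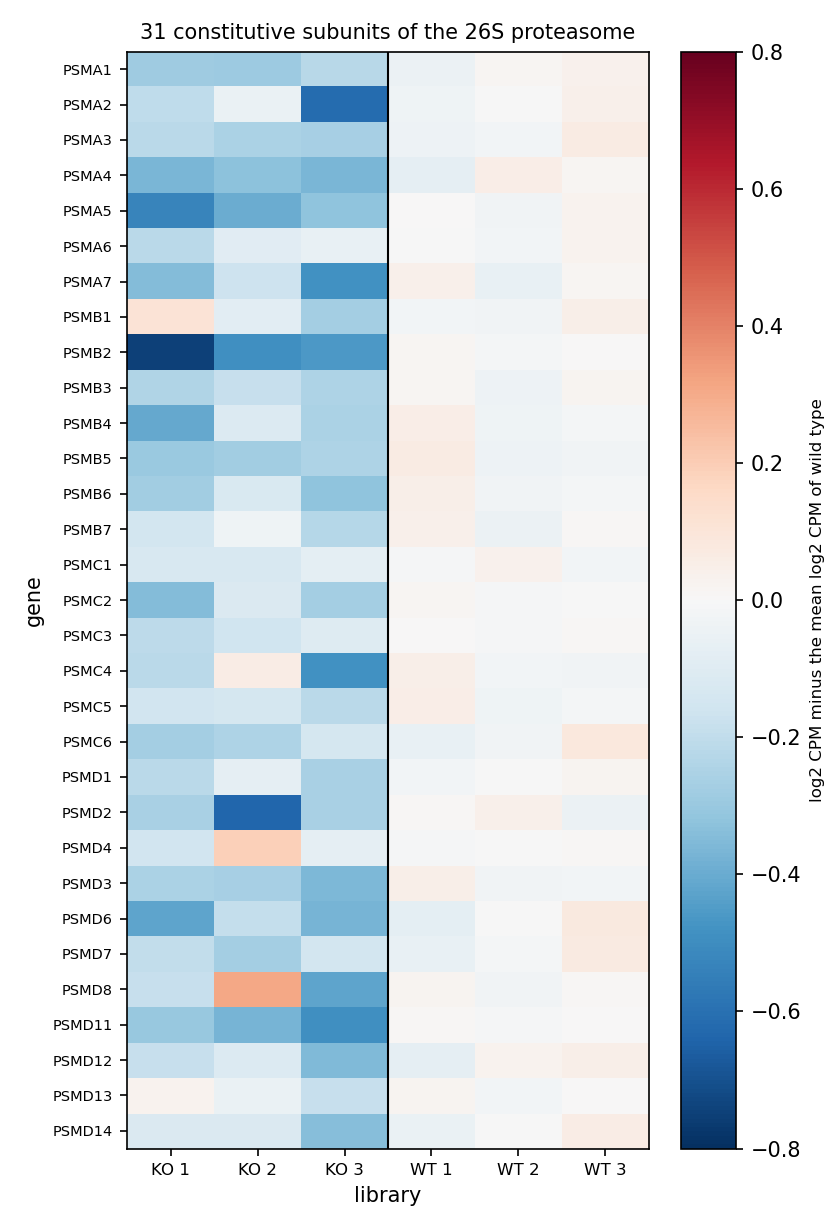
Log2 CPM of each of the 31 constitutive subunits in each library, minus the mean log2 CPM of wild type; columns are the 3 knockout libraries and then the 3 wild-type libraries, and blue is lower. Blue covers nearly all of the knockout columns, with PSMD8 and PSMD4 in knockout library 2 as the clearest exceptions.

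The alpha subunits form the outer rings of the core and the gate through which substrates enter. Of the 7 tested, 5 were lower and 2 did not pass, where 15.4% of all tested genes were called as lower. In all 7 every knockout library lay below every wild-type library, a pattern that 25.7% of all tested genes showed. PSMA5 (hg19 chr1:109941653-109969108) fell most, with 239, 262 and 275 CPM in the knockout libraries against 345, 337 and 351 CPM in wild type. The groups were separate by a wide margin (log2 fold change -0.41, SE 0.07, adjusted p = 0.00628). The 50 tested genes around PSMA5 had a median log2 fold change of -0.17, and with them as offset PSMA5 stood at -0.25. PSMA4 fell by 0.36 on the log2 scale (adjusted p = 0.00624), with 246 to 253 CPM in knockout and 302 to 330 CPM in wild type. PSMA5 and PSMA4 kept their calls under all 16 alternatives. PSMA7 (log2 fold change -0.33), PSMA1 (-0.26) and PSMA3 (-0.25) were also called as lower. For PSMA1 the adjusted p was up to 0.0708 without wild-type library 2 or 3. Without any 1 wild-type library it was 0.0777 to 0.106 for PSMA7 and 0.0534 to 0.0876 for PSMA3, and PSMA7 also reached 0.0501 without knockout library 1. PSMA2 and PSMA6 did not pass, and PSMA2 varied from 168 to 248 CPM among the knockout libraries.

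Of the 7 constitutive beta subunits, 4 were lower and 3 did not pass, where 15.4% of all tested genes were called as lower. Besides PSMB5 and PSMB6, described above, the lower ones were the structural subunits PSMB2 and PSMB3. PSMB2 (hg19 chr1:36035413-36107445) showed the largest fall of any proteasome gene, with 309, 369 and 376 CPM in the knockout libraries against 523, 511 and 519 CPM in wild type. Every knockout library was clearly below wild type, and library 1 was the lowest (log2 fold change -0.56, SE 0.09, adjusted p = 0.00456). The call was kept under all 16 alternatives. Its 50 neighbouring genes had a median of -0.21, and -0.34 in knockout library 1, and with them as offset PSMB2 stood at -0.35. PSMB3 fell by 0.22 on the log2 scale (adjusted p = 0.0253), with an adjusted p of 0.0727 to 0.0978 without any 1 wild-type library. Its neighbouring genes had a median of -0.16, and with them as offset PSMB3 stood at -0.08 and lost its call (adjusted p = 0.393). PSMB1, per kilobase the most abundant proteasome transcript in wild type at 520 CPM per kilobase, averaged 494 CPM per kilobase in knockout and did not pass (log2 fold change -0.07, adjusted p = 0.6). PSMB4 had a log2 fold change of -0.25 and an adjusted p of 0.0604, and passed without knockout library 2 (0.0167). With all libraries it passed under DESeq2 (0.0225), neighbouring genes as offset (0.0224), limma-voom with a spread for each genotype (0.0456) and no expression filter (0.0499).

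The base comprises 6 ATPases, PSMC1 to PSMC6, which unfold the substrate, the scaffolds PSMD1 and PSMD2, and the ubiquitin receptor PSMD4. Of the 9, 2 were lower and 7 did not pass, or 22.2% called as lower against 15.4% of all tested genes, with a median of -0.18. PSMC2 was the ATPase called as lower (log2 fold change -0.24, adjusted p = 0.0428). With neighbouring genes as offset PSMC2 stood at -0.13 and lost its call (adjusted p = 0.265). Its adjusted p was 0.119 to 0.121 without any 1 wild-type library, and up to 0.0631 without knockout library 1 or 3. The other 5 ATPases lay between -0.22 and -0.11. Of these, PSMC4 passed without knockout library 2 (0.0363), and PSMC3 (0.0352) and PSMC6 (0.0278) passed without knockout library 3. With DESeq2 on all libraries PSMC3 (0.0213), PSMC5 (0.0162) and PSMC6 (0.0177) passed, and PSMC1 and PSMC4 did not. PSMD2 had 452, 348 and 451 CPM in the knockout libraries, against 544, 555 and 522 CPM in wild type (log2 fold change -0.37, adjusted p = 0.0381). Knockout library 2 was the lowest, and there the 50 genes around PSMD2 had a median deviation of -0.51 from wild type. The PSMD2 call was lost without any 1 wild-type library (0.0859 to 0.111) and with the neighbours as offset. PSMD4 was level on average (log2 fold change -0.01, adjusted p = 0.968), with 309 CPM in knockout library 2 and 244 and 258 CPM in the other two, against 270 to 273 CPM in wild type. PSMD1 did not pass (-0.18, adjusted p = 0.0852), except with DESeq2 (0.0399), with neighbouring genes as offset (0.0385) and without knockout library 2 (0.02).

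The lid removes ubiquitin from substrates, with PSMD14 as its deubiquitinase. Of its 8 subunits, PSMD11, PSMD6 and PSMD3 were lower and 5 did not pass, or 37.5% called as lower against 15.4% of all tested genes. PSMD11 had 220, 210 and 194 CPM in the knockout libraries, against 274, 270 and 272 CPM in wild type. The wild-type libraries were within 4 CPM of each other and the knockout libraries well below them (log2 fold change -0.39, SE 0.07, adjusted p = 0.00624), and the call was kept under all 16 alternatives. PSMD6 fell (log2 fold change -0.33, adjusted p = 0.0263), with an adjusted p of 0.0582 to 0.103 without any 1 wild-type library. PSMD3 fell by 0.29 (adjusted p = 0.0116), with 0.0503 without wild-type library 1. PSMD14 did not pass (log2 fold change -0.19, adjusted p = 0.12). PSMD8 was the lid gene whose knockout libraries differed most, with 272, 382 and 230 CPM against 313, 303 and 310 CPM in wild type. Knockout library 2 was above and the other two below wild type (log2 fold change -0.07, adjusted p = 0.792), and without library 2 PSMD8 passed as lower (adjusted p = 0.0372). The genes around PSMD8 had a median deviation of 0.45 in knockout library 2, 0.38 in library 1 and 0.11 in library 3. PSMD12 passed without knockout library 2 (0.0411) and PSMD7 without knockout library 3 (0.0307). With DESeq2 on all libraries PSMD12 (0.0421) and PSMD7 (0.0116) passed as well.

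Of the 7 tested assembly chaperones, which help to build the particle and are not part of it, 5 were lower and 2 did not pass. Of all tested genes, 15.4% were called as lower. PSMG1 (hg19 chr21:40547372-40555440), which with PSMG2 guides the alpha ring, had 147, 171 and 158 CPM in the knockout libraries against 220, 229 and 239 CPM in wild type. The groups were far apart (log2 fold change -0.53, SE 0.08, adjusted p = 0.00388). Its partner PSMG2 had 64.5, 62.3 and 57.5 CPM in knockout and 64.3, 65.8 and 65.6 CPM in wild type, and did not pass (log2 fold change -0.09, adjusted p = 0.378). PSMG3 and PSMG4, which form the other chaperone pair, were both lower. PSMG4 (hg19 chr6:3259162-3268300), at 13 CPM per kilobase in wild type the scarcest tested transcript outside the immune subunits, had 19.3, 18.5 and 20.9 CPM in knockout against 25.8, 26.1 and 26.8 CPM in wild type (log2 fold change -0.42, SE 0.09, adjusted p = 0.0145). PSMG3 fell by 0.32 on the log2 scale (adjusted p = 0.0241). Without any 1 wild-type library the adjusted p was 0.0535 to 0.0687 for PSMG4 and 0.0651 to 0.0859 for PSMG3.

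Among the base chaperones, PSMD5 (hg19 chr9:123578332-123605299) had 140, 151 and 141 CPM in the knockout libraries, against 194, 201 and 194 CPM in wild type. Both groups were tight (log2 fold change -0.45, SE 0.06, adjusted p = 0.00336). PSMD9 was lower (log2 fold change -0.28, adjusted p = 0.0445), a call that was lost without any 1 wild-type library (0.103 to 0.143) and without knockout library 1 (0.0557). With neighbouring genes as offset PSMD9 stood at -0.16 and also lost its call (adjusted p = 0.217). PSMD10, also known as gankyrin, did not pass (-0.08, adjusted p = 0.485). PSMG1 and PSMD5 kept their calls under all 16 alternatives. PSMF1, the inhibitor PI31, had 119, 141 and 131 CPM in knockout and 129, 123 and 126 CPM in wild type, with overlapping groups (log2 fold change 0.05, adjusted p = 0.653).

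The 8 genes whose calls were kept under all 16 alternatives were PSMA4, PSMA5, PSMB2, PSMD11, PSMD5, PSMG1 and PSME3, which fell, and PSMB8, which rose. The other 16 called genes lost the call in at least 1 alternative. In the 46 tested genes the median SD of log2(CPM + 0.5) was 0.106 in knockout and 0.0409 in wild type, against 0.214 and 0.0802 over all tested genes. The median deviation of the 46 genes from wild type was -0.21, -0.15 and -0.26 in knockout libraries 1, 2 and 3. Library 2 was the highest of the 3 knockout libraries for 21 of the 46 genes, and library 3 the lowest for 25. Proteasome genes took 0.902%, 0.931% and 0.850% of all counts in the knockout libraries, against 0.963%, 0.967% and 0.979% in wild type.

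Genes outside the PSM symbols that act with the proteasome were examined in lists by function. Of 12 proteasome partners, 4 were lower, none was higher and 8 did not pass, so that 33.3% were called, near the 33.7% of all tested genes. USP14, a deubiquitinase bound to the cap, had 209, 178 and 210 CPM in knockout libraries and 266, 290 and 282 CPM in wild type (log2 fold change -0.49, adjusted p = 0.00647). UCHL5, the other cap-bound deubiquitinase, fell by 0.46 (adjusted p = 0.0318, and 0.0789 to 0.107 without any 1 wild-type library or 0.0593 without knockout library 3, and 0.069 with library totals alone). KIAA0368, the proteasome adaptor also called ECM29, fell by 0.46 (adjusted p = 0.00347). POMP, the maturation factor of the core, had 160, 182 and 168 CPM in knockout and 150, 159 and 157 CPM in wild type and did not pass (log2 fold change 0.13, adjusted p = 0.184), except as a rise with library totals alone (0.0354) or upper quartile factors (0.0478). The median of the list was -0.12.

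Of 12 ubiquitin shuttles and components of the VCP unfoldase, 5 were lower and none higher, or 41.7% called against 33.7% of all tested genes, with a median of -0.18. DDI2, a shuttle and protease, had 36.9, 29.8 and 32.1 CPM in knockout and 45.6, 53.7 and 43.4 CPM in wild type (log2 fold change -0.53, adjusted p = 0.016, and 0.0615 without wild-type library 2). FAF1 (-0.41, adjusted p = 0.0214) and RAD23B (-0.41, adjusted p = 0.0126) were also lower, with adjusted p of 0.059 to 0.0824 and 0.0527 to 0.0595 without any 1 wild-type library. With neighbouring genes as offset the calls of DDI2 (-0.30, adjusted p = 0.187) and FAF1 (-0.15, adjusted p = 0.19) were lost, and the genes around FAF1 had a median of -0.23. Of 6 genes for ubiquitin and its activating enzymes, UBA6 was lower (-0.37, adjusted p = 0.011, up to 0.0602 without wild-type library 2 or 3) and 5 did not pass. In this list 16.7% were called, against 33.7% of all tested genes.

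NFE2L1 is the transcription factor that drives proteasome genes when proteasome activity is short, after NGLY1 and DDI2 have processed it. It had 192, 172 and 184 CPM in knockout and 182, 184 and 181 CPM in wild type (log2 fold change 0.00, adjusted p = 0.973). In the list of 9 genes of this pathway, 2 were higher, 3 lower and 4 did not pass. Thus 55.6% were called, against 33.7% of all tested genes. MAFF, a small MAF protein, rose to 7.62, 9.45 and 9.82 CPM in knockout, against 4.65, 4.13 and 4.11 CPM in wild type (log2 fold change 1.06, adjusted p = 0.00618). BACH1, a repressor that pairs with small MAF proteins, rose (log2 fold change 0.47, adjusted p = 0.00721, or 0.0527 without wild-type library 2). KEAP1 (-0.38, adjusted p = 0.00795) and NGLY1 (-0.35, adjusted p = 0.0148, up to 0.0625 without wild-type library 2 or 3 and 0.0697 with library totals alone) fell, as did DDI2. The antioxidant response letters TGACNNNGC, to which NFE2L1 with a small MAF protein can bind, were in 15 of the 51 windows of proteasome genes, against 13.3% of all windows. Of the 15 genes that hold them 3 were higher, 6 lower and 6 not called.

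Genes that carry peptides from the proteasome to class I HLA molecules moved in both directions. Of 16 listed, 12 were tested, 6 were higher, 2 lower and 4 did not pass, or 66.7% called against 33.7% of all tested genes, with a median log2 fold change of 0.56. TAP1, which lies between PSMB8 and PSMB9 on chromosome 6, had 27.2, 13.6 and 7.51 CPM in the knockout libraries against 3.94, 3.83 and 4.15 CPM in wild type. The groups were apart, with library 1 highest and library 3 lowest (log2 fold change 2.02, SE 0.45, adjusted p = 0.0148), although the adjusted p was 0.0627 to 0.0668 without any 1 wild-type library. Without knockout library 1 the TAP1 log2 fold change was 1.41. TAP2 had 129, 57.4 and 77.3 CPM in knockout and 62.8, 60.4 and 57.8 CPM in wild type, with overlapping groups (log2 fold change 0.54, adjusted p = 0.165), and passed without knockout library 2 (0.0361). HLA-C, a class I heavy chain whose reads can be shared with near-identical HLA genes, had 49.9, 24.5 and 7.39 CPM in knockout and 2.74, 1.88 and 1.95 CPM in wild type (log2 fold change 3.64, adjusted p = 0.00831). Without knockout library 1 the HLA-C log2 fold change was 2.86, and limma-voom did not call it (adjusted p = 0.0621). TAPBPL, a peptide editor related to tapasin, had 2.81, 0.981 and 0.714 CPM in knockout and 0.338, 0.376 and 0.346 CPM in wild type (log2 fold change 2.08, adjusted p = 0.0336, and 0.112 to 0.118 without any 1 wild-type library). Its wild-type levels were all under the 0.415 CPM of the expression filter, so TAPBPL was tested only because of its knockout levels, and limma-voom did not call it (adjusted p = 0.0736). Without knockout library 1 its log2 fold change was 1.25. The 2 that fell were the endoplasmic reticulum chaperones CANX (-0.52, adjusted p = 0.00201) and CALR (-0.29, adjusted p = 0.0148, 0.0523 to 0.0585 without any 1 wild-type library and 0.0968 with library totals alone).

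Of 12 genes of the interferon gamma signal, 10 were tested, 4 were higher, none was lower and 6 did not pass, so that 40% were called, against 33.7% of all tested genes. IRF1, the factor that acts on immunoproteasome promoters, had 20, 15.3 and 7.47 CPM in knockout, against 5.44, 5.81 and 5.93 CPM in wild type (log2 fold change 1.31, SE 0.34, adjusted p = 0.0256). The call was lost without any 1 wild-type library (0.0885 to 0.0981), without knockout library 2 (0.0562) and with limma-voom (0.06). STAT2 had 54.6, 60.6 and 53.2 CPM in knockout and 31.8, 32.3 and 30.8 CPM in wild type (log2 fold change 0.83, adjusted p = 0.00135). SOCS1, a feedback inhibitor, had 5.39, 3.66 and 5.96 CPM in knockout and 2.63, 2.39 and 2.08 CPM in wild type (log2 fold change 1.08, adjusted p = 0.0198, and 0.0666 to 0.0941 without any 1 wild-type library). NLRC5, the class I transactivator, had at most 0.336 CPM in any library and was not tested.

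**Figure D5:**
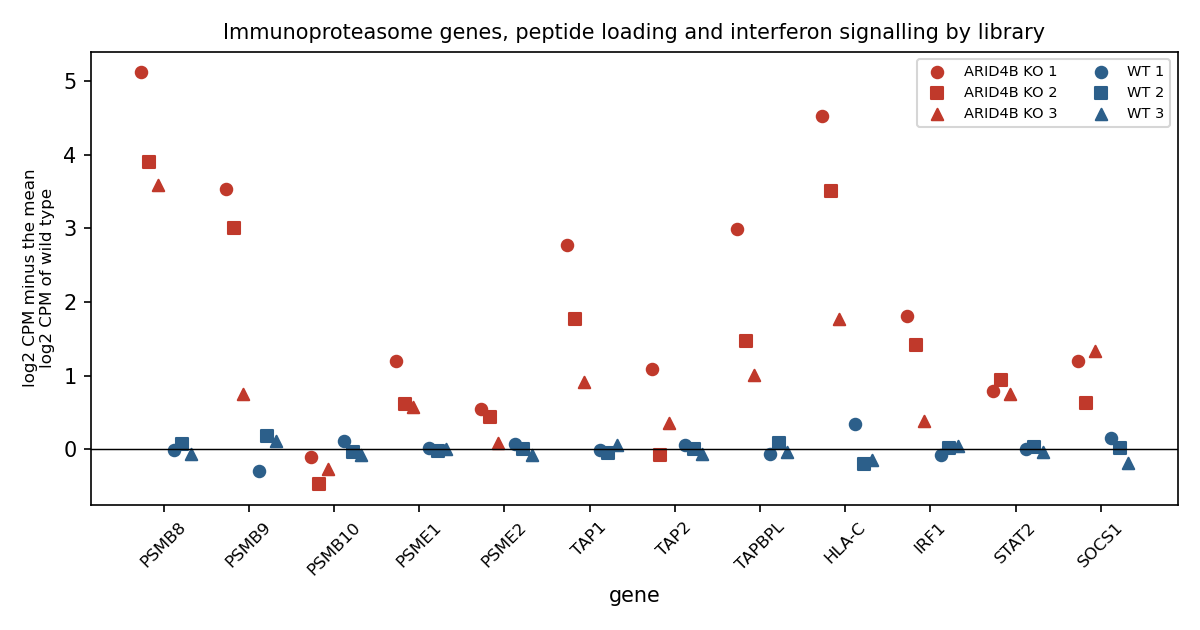
Log2 CPM minus the mean log2 CPM of wild type, per library, for immunoproteasome genes, peptide loading genes and genes of the interferon gamma signal; red symbols are knockout and blue symbols wild-type libraries, and the symbol shape gives the library number. Knockout library 1 is the highest of the 3 for the genes plotted except STAT2, where library 2 is, and SOCS1, where library 3 is, and all 3 knockout libraries lie below 0 for PSMB10.

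Markers of lymphoid and monocytic cells, which express immunoproteasome genes, were read beside them, and their part in the results was not tested. The 7 lymphoid markers summed to 4.92, 11 and 14.5 CPM in the knockout libraries, against 4.61 to 4.77 CPM in wild type, and MS4A1 had 0 counts in every library. The 6 monocyte and dendritic markers summed to 16, 52.3 and 33.4 CPM in knockout, against 20.5 to 21.6 CPM in wild type, and CD163 had 0 counts in every library. Within 250000 bases of PSMB9, 5 other genes were tested, of which TAP1 and HLA-DPB1 were higher and none was lower. HLA-DPB1 averaged 0.825 CPM in knockout and 0.139 CPM in wild type, the second under the level of the filter, so it was tested only because of its knockout levels. BRD2, also in that interval, had a log2 fold change of 0.02 (adjusted p = 0.877). The 50 tested genes nearest to PSMB8 had a median of 0.15.

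The authors' deposited table of knockout against wild type lists 3153 genes, of which 3 are proteasome genes. In the authors' deposited table PSMB8 has a log2 fold change of 4.18 (adjusted p = 0.0233), PSMB9 one of 2.60 (adjusted p = 0.134) and PSME1 one of 1.06 (adjusted p = 0.073). The smallest absolute log2 fold change in the authors' deposited table is 0.59, so the falls of the constitutive subunits, the largest of which was -0.56, lie below the sizes it lists.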

How the data were processed

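Per the labels' protocols, DNase-treated total RNA of K562 cells was made into strand-preserving messenger RNA libraries and sequenced as paired ends. The authors deposited an estimated count for each gene in each library, not normalized. STAR 2.4, RSEM 1.2.14, hg19 and GRCh37 are named in the submitters' processing notes, without roles. The sources used here do not say if counting used strand. The authors also deposited a table of log2 fold changes with p-values, unadjusted and adjusted, and the sources used here do not name its test.

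Dates in the symbol column were restored for 27 genes. After rounding to whole counts, genotypes were compared in edgeR 4.0.16 under R 4.3.3: TMM scaling, the default expression filter (minimum count 10), a quasi-likelihood F test on genotype, Benjamini-Hochberg over 13696 genes, threshold 0.05. Alternatives used DESeq2 1.42.0 and limma 3.58.1, other scalings and filters, a replicate block, neighbouring genes as offset (25 on each side) and leaving out each library, 16 in all for single genes. Scripts were tested on simulated data. Levels per kilobase divide CPM by mean transcript length (GENCODE 29), and SDs and median deviations per library use log2 of CPM plus a pseudocount of 0.5. Coordinates are hg19, with 1 added to starts, except promoters. Promoter windows came from RefSeq. The proteasome genes and the gene lists were chosen with earlier results of these data known. Named in full were the immune subunits, their counterparts, PSME1 and PSME2 and the up to 6 largest changes each way. From each list up to 3 called genes each way with at least 1 CPM were named, and POMP, NFE2L1, IRF1, NLRC5, TAP1 and TAP2 always. HLA-DPB1 and BRD2 and some values of single libraries were chosen after their values were seen. A further gene of the rule is not reported here. No per-sample column was left unmapped.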

Additional observations from a re-analysis of the deposited data

How the results depend on the processing

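All counts and medians are set beside 2512 higher and 2107 lower genes, 4 higher and 20 lower proteasome genes and their median of -0.22 in the edgeR analysis with TMM. Scaling by library totals alone gave 1283 lower genes, 8 lower proteasome genes and a median of -0.11. Upper quartile factors gave 10 lower proteasome genes and a median of -0.13, and limma-voom gave 2 higher proteasome genes. Leaving out 1 library at a time, by construction with fewer samples, gave 1156 to 2921 higher and 941 to 2548 lower genes, and 1 to 5 higher and 8 to 25 lower proteasome genes. The PSMB10/PSMB7 log2 ratio ranged from -0.23 to 0.00 in the same way, and its sign was lost without knockout library 2. The cause of these changes was not tested. With a pseudocount of 1 CPM the PSMB8/PSMB5 and PSMB9/PSMB6 log2 ratios differed by 2.37 and 1.74 in place of 4.48 and 2.67, with the same direction. Same-numbered libraries of the 2 genotypes deviated from their group means with correlations of 0.008, 0.002 and 0.015. With 3 libraries per genotype, these values cannot show if same-numbered libraries shared a day or a batch. A fit with the replicate block called 3 higher and 11 lower proteasome genes. DESeq2 called 5 higher and 27 lower proteasome genes, and without the expression filter 3 were higher and 23 lower. Depth limits PSMB8 and PSMB9 in wild type, where values rest on 5 to 20 counts.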
